A study of Sus scrofa with 40 samples.

Results

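The myosin light chain kinases of striated muscle are 3 genes, MYLK2, MYLK3 and MYLK4, of the 21280 genes in a table of read counts from 4 meat cuts of Chalu black pigs. They were chosen by gene name, and MYLK4 was picked because earlier results of these data showed it far higher in the hamstring than in the longissimus and the belly. Its level in those cuts is therefore given as a description. Each cut had 10 RNA sequencing libraries: LDM is the longissimus dorsi, a back muscle, HM the hamstring, a muscle of the hind leg, TM the trapezius over neck and shoulder, and PB the pork belly. All came from male pigs by a common sire, with no treatment labelled, fasted for 24 h and sampled on the left side within 45 min of death. An age is not given in the labels used here, and muscle was taken apart from fascia. The cuts had no reference among them, so the question in each of the 6 pairs is how the kinases differ between 2 muscles. The labels do not say that a library number marks a pig, and p-values measure the spread between these libraries.

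These kinases add a phosphate to the regulatory light chain, the small subunit that sits on the neck of the myosin head. They act when calcium, released at each contraction, loads calmodulin, which then binds the kinase. In skeletal muscle the phosphate does not switch contraction on, as it does in smooth muscle, but raises the force of a fast fibre at a given calcium level, and myosin phosphatase takes it off again. MYLK2 is the kinase of skeletal muscle and is best known in fast fibres, MYLK3 is the kinase of heart muscle, and MYLK4 is a less studied relative found in striated muscle. MYLK, the fourth gene of the family, makes the kinase of smooth muscle and of non-muscle cells.

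On the Sscrofa11.1 build MYLK2 (ENSSSCG00000007231) lies on chromosome 17 from 35499908 to 35513088 on the plus strand, and MYLK3 (ENSSSCG00000036874) on chromosome 6 from 37850754 to 37920768 on the plus strand. MYLK4 (ENSSSCG00000028777) lies on chromosome 7 from 1536316 to 1657419 on the minus strand. Its name cell in the table is empty, so it was identified by the Entrez identifier and the description in the same row, while the other 2 are named there. MYLK2 and MYLK3 overlap no other gene of the table. MYLK4 shares 978 bases with WRNIP1 on the opposite strand, and whether reads were counted by strand is not stated in the sources used here. WRNIP1, named after its values were seen, had medians of 42.6 CPM (the count relative to the library total) in LDM, 36.7 in PB, 48.1 in HM and 54.8 in TM, with a log2 change of 0.07 ± 0.12 (SE) in HM over LDM (adjusted p = 0.691, edgeR).

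Library totals ran from 12305913 to 17735722 counts. Markers of skeletal muscle fibres were high in every cut, with 4 of 5 in the table and summed medians of 100886 to 131633 CPM. By correlation over all genes tested, 36 libraries lay nearest to the mean of their own cut and 4 to another: HM6 to TM, HM9 and TM7 to LDM, and TM3 to HM. HM6 also stood apart in smooth muscle markers, at a summed 7877 CPM against 382 to 1113 in the other HM libraries. It had the highest adipocyte, endothelial, leukocyte and Schwann cell sums of its cut. PB8 correlated least of all libraries with its own cut mean, at 0.913. Its leukocyte markers summed to 117 CPM, beside a PB median of 25.2. PB1 is titled as belly while its tissue field names the longissimus; it was analysed as PB, and its nearest cut mean was that of PB.

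MYLK2, the skeletal muscle kinase, was the abundant member in all 4 cuts and was highest in the longissimus. In LDM its level ran from 467 to 1764 CPM with a median of 1282. In HM it ran from 126 to 1020 CPM with a median of 481, in TM from 263 to 1161 with a median of 606, and in PB from 295 to 1099 with a median of 786. No HM, TM or PB library reached the LDM median, but the cuts overlapped, because LDM3 and LDM4 stood at 534 and 467 CPM while the other 8 LDM libraries were at 1006 or more. HM5 was the lowest of all libraries at 126 CPM. Below LDM4 in CPM were HM2, HM3, HM4, HM5 and HM10, TM3, TM5, TM9 and TM10, and PB3 and PB5. With library totals scaled by TMM, as in the fit, 6 of 10 HM, 5 of 10 TM and 2 of 10 PB libraries were below the lowest LDM library.

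**Figure D1:**
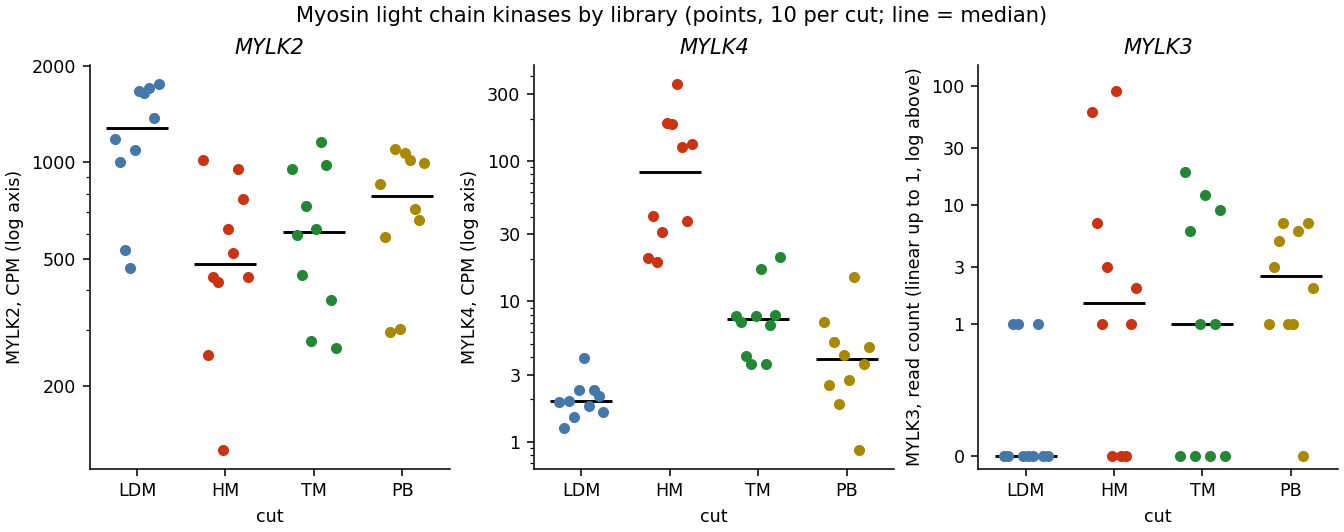
Level of each kinase in every library: CPM on log axes for MYLK2 and MYLK4, and read counts for MYLK3 on an axis that is linear up to 1 and logarithmic above it. Points are the 10 libraries of a cut and lines are medians; MYLK2 is highest in LDM (median 1282 CPM), MYLK4 in HM (83.2 CPM), and MYLK3 has 2 HM libraries, at 60 and 91 counts, far above all others.

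The differences of MYLK2 passed the test in 2 of the 6 pairs in the fit by cut alone. With the library number as a block, PB against LDM and HM against PB passed as well, as given in the last paragraph. MYLK2 differed among the 4 cuts (F test of edgeR's quasi-likelihood fit, adjusted p = 0.0018), as did 57.2% of the 11713 genes tested. It was lower in HM than in LDM, with a log2 change of -1.19 ± 0.30 (SE, adjusted p = 0.00218), a pair in which 32.5% of all genes passed. It was likewise lower in TM than in LDM, at -1.11 ± 0.30 (adjusted p = 0.00526), against 24.7% of genes. The order of means was LDM, PB, TM and HM, and no neighbours in that order passed the test. PB stood at -0.61 ± 0.29 from LDM (95% interval -1.21 to -0.02, unadjusted p = 0.043, adjusted p = 0.0905) and TM at -0.49 ± 0.29 from PB (adjusted p = 0.224). HM stood at -0.08 ± 0.29 from TM, with an interval from -0.68 to 0.51 (adjusted p = 0.935), a difference that took the other sign without HM5, TM1 or TM7. HM stood at -0.58 ± 0.29 from PB (adjusted p = 0.138).

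Per length, MYLK2 was among the most abundant messages of these muscles. Its mean FPKM, the count scaled to gene length and library total, was 305 ± 117 (SD, n = 10) in LDM, 186 ± 73.4 in PB, 156 ± 76.5 in TM and 136 ± 70.4 in HM. That placed it 102nd of 21280 genes in LDM, 143rd in PB, 188th in TM and 219th in HM. In bulk muscle, fewer fibres of a type and less message per fibre cannot be told apart.

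**Figure D2:**
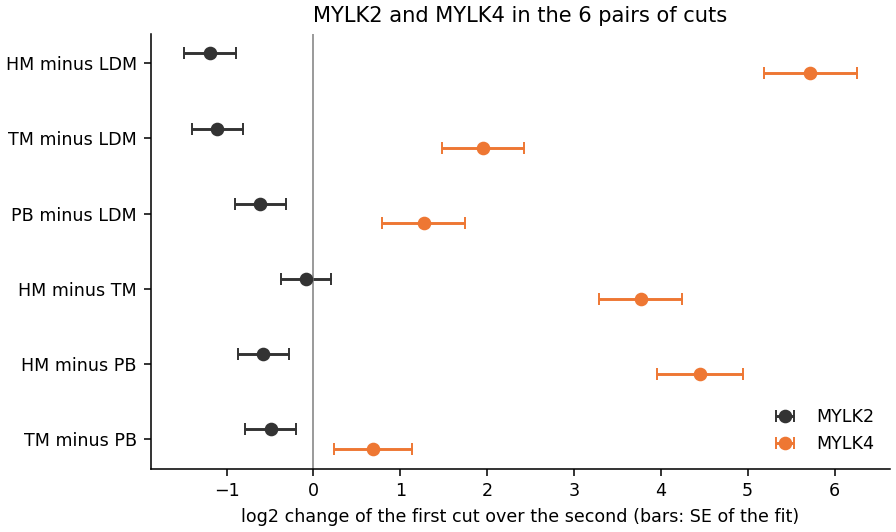
Log2 change of MYLK2 and MYLK4 in the 6 pairs of cuts; points are the edgeR estimates over 40 libraries and bars their SE. MYLK2 is negative in all 6 pairs, from -1.19 to -0.08, and MYLK4 positive in all 6, from 0.68 to 5.72.

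MYLK4 had its highest levels in the hamstring, the pattern for which it was picked. Its level in LDM ran from 1.24 to 3.95 CPM with a median of 1.94, resting on 21 to 57 reads a library. In HM it ran from 19.0 to 356 CPM with a median of 83.2, on 271 to 5201 reads. In TM the range was 3.56 to 20.7 CPM with a median of 7.52, and in PB 0.866 to 14.9 with a median of 3.86. All 10 HM libraries were above every LDM and every PB library. Of all genes tested, 0.333% were higher in HM than in LDM without overlap and 0.231% higher in HM than in PB. HM and TM did overlap: 8 of 10 HM libraries were above the highest TM library, TM10, and HM1 and HM3 just below it, at 20.4 and 19.0 CPM.

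On the log2 scale MYLK4 in HM stood 5.72 ± 0.53 (SE) above LDM, a 52.6-fold difference, 4.45 ± 0.50 above PB (21.9-fold) and 3.77 ± 0.48 above TM (13.6-fold). TM stood 1.95 ± 0.47 above LDM and 0.68 ± 0.45 above PB. No test is given for these 5 pairs. Leaving out any 1 of the 40 libraries gave 5.34 to 5.87 for HM over LDM and 4.01 to 4.80 for HM over PB, and without HM6, HM9, TM3 and TM7 the first value was 5.80. TM over PB was less firm, at 0.40 without TM10 and 1.03 without PB7.

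The choice of MYLK4 named no difference between belly and longissimus, but it used the levels of both cuts, so the test of this pair is not independent support. MYLK4 was higher in PB than in LDM by 1.27 ± 0.47 (SE, adjusted p = 0.0297, edgeR), a pair in which 41.7% of all genes passed. With library totals scaled by TMM, 5 of 10 PB libraries were above the highest LDM library and 9 above the LDM median. PB8 was below the lowest LDM library. In CPM without that scaling PB4, at 1.86, also lay below the LDM median of 1.94. The call rested on PB7, at 14.9 CPM: without it the log2 change was 0.92 (adjusted p = 0.111). With limma-voom it was 1.05 (adjusted p = 0.176).

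MYLK4 had a wide spread within the hamstring. From lowest to highest, HM3 had 19.0 CPM, HM1 20.4, HM4 30.9, HM9 37.0, HM2 40.6, HM8 126, HM10 132, HM6 184, HM5 185 and HM7 356. The highest was 18.7 times the lowest, against 8.09 times for MYLK2 in HM. In PB the ratio was 17.3 for MYLK4, nearly as wide, with 13 to 205 reads. The values left a gap between 40.6 and 126 CPM, with 5 libraries on each side. HM7, the highest, had a summed 18718 CPM of slow fibre markers, against 12382 to 66669 over the other HM libraries, whose median was 43416. Its fast fibre markers summed to 77351 CPM, against 20610 to 89615. Within HM, MYLK4 had r = -0.32 with MYH7 and 0.17 with MYLPF (n = 10, adjusted p = 0.818 and 0.887, permutation test).

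The hamstring had the largest MYLK4 share of kinase message. In LDM, MYLK4 was 0.0411% to 0.163% of the summed FPKM of the 3 kinases, and in PB 0.0543% to 0.766%. In TM it was 0.137% to 3.41%. In HM its share had a median of 6.16% and reached 11.7% in HM6, 11.8% in HM10, 23.4% in HM7 and 39.7% in HM5, the library with the least MYLK2, while HM1 was at 0.884%. MYLK2 was the larger part in all 40 libraries, with at least 60.3%. The sum itself had a median FPKM of 313 in LDM, 192 in PB, 150 in TM and 144 in HM, so with MYLK4 counted in, HM still had the lowest median. The within-library ratio of MYLK4 to MYLK2 per length, which does not depend on library scaling, had medians of 0.000723 in LDM, 0.0023 in PB, 0.00478 in TM and 0.0658 in HM.

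**Figure D3:**
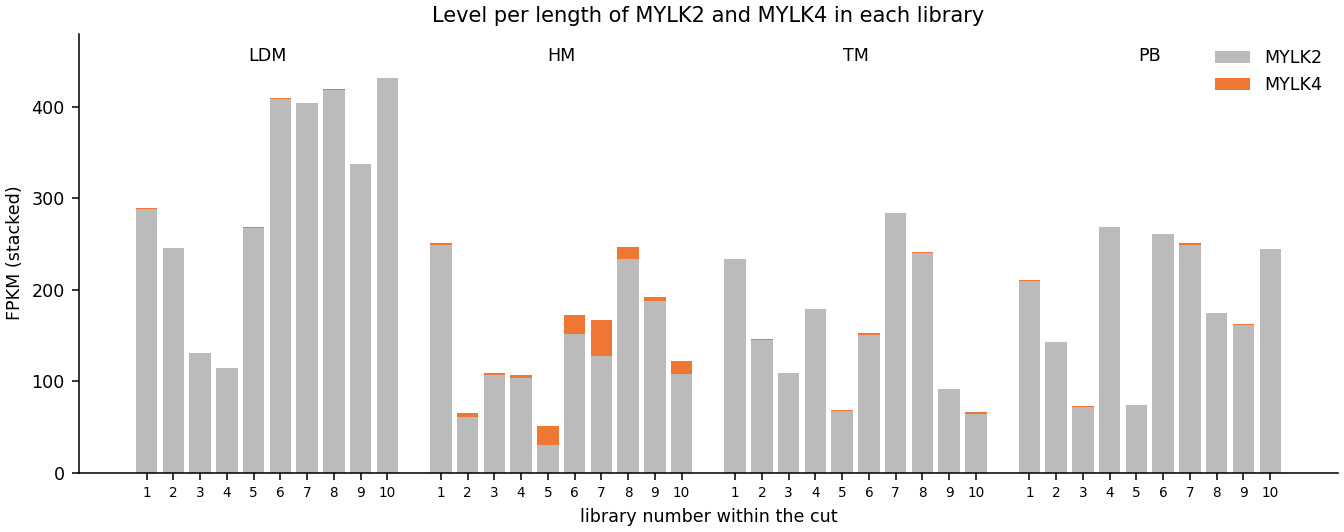
FPKM of MYLK2 and MYLK4 stacked for each of the 40 libraries, in library order within a cut; MYLK3 is too low to be seen and is left out. The MYLK4 part is visible mainly in HM, most in HM5 (39.7% of the kinase sum) and HM7 (23.4%).

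MYLK3, the heart muscle kinase, was close to the limit of detection in all cuts and did not pass the filter on low counts, so 2 of the 3 members were tested. It had 249 reads over the 40 libraries, 0 in 15 of them and 1 to 3 in 14. In LDM 7 libraries had 0 reads and LDM3, LDM4 and LDM8 had 1. In HM the counts were 60 in HM1, 91 in HM6, 7 in HM2, 3 in HM4, 2 in HM10, 1 each in HM3 and HM9, and 0 in HM5, HM7 and HM8. TM libraries had 0 to 19 and PB libraries 0 to 7. The groups overlapped, and 91.5% of the HM reads came from HM1 and HM6.

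Summed over a cut, MYLK3 stood at 0.0195 CPM in LDM (95% exact Poisson interval 0.00402 to 0.0570), 1.10 in HM (0.94 to 1.28), 0.315 in TM (0.232 to 0.417) and 0.231 in PB (0.159 to 0.324). These intervals, and those of the ratios that follow, pool the reads of a cut. They cover counting error only and leave out the spread between libraries. The ratio to LDM, which rests on 3 reads there, was 56.5 in HM (interval 19.0 to 277), 16.1 in TM (5.20 to 81.0) and 11.8 in PB (3.71 to 60.3). Without HM1 and HM6 the HM level was 0.115 CPM and its ratio 5.88 (1.64 to 31.9). Without HM1 alone the ratio was 39.4 and without HM6 alone 28.0.

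In a fit with no filter, MYLK3 was higher than in LDM in each of the other cuts. The log2 changes were 5.18 ± 1.12 (SE) for HM, 3.44 ± 1.17 for TM and 3.21 ± 1.20 for PB (adjusted p = 0.00081, 0.039 and 0.0417, edgeR without a filter on low counts). The 3 pairs without LDM did not pass, with adjusted p = 0.107 or more. These fold changes depend on how the fit treats zeros and are no bounds. The ratio of MYLK3 to MYLK2 within a library adds 0.5 to each count, so in the 15 libraries with 0 reads it is set by that number and by MYLK2, which is itself highest in LDM. It is not used as support here.

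Markers of other cell types were set beside MYLK3. HM6 had 2592 CPM of the smooth muscle myosin MYH11 and 3168 of the smooth muscle actin ACTA2, and 5 of 5 smooth muscle markers were in the table. HM1, with 60 MYLK3 reads, had a smooth muscle sum of 632 CPM, the median of the HM libraries other than HM6. Of 7 heart muscle markers 4 were in the table. NPPB, a hormone of heart muscle, had 1 read over all 40 libraries, and TNNI3, the heart troponin I, had 17 with at most 3 in a library. TNNT2, the heart troponin T, had 488 reads with at most 72 in a library, and MYL4, an atrial light chain, had 183 with at most 40. The summed heart muscle list was 0.0752 CPM in HM1 and 4.49 in HM6. The part of other cell types in the MYLK3 counts was not tested.

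The regulatory light chains that these kinases act on set LDM apart from the other cuts, the fast one higher there and the slow one lower. MYLPF, the light chain of fast fibres, ran from 3602 to 6743 CPM in LDM, 1855 to 5050 in HM, 878 to 5646 in TM and 1650 to 4092 in PB. It was lower than in LDM by log2 changes of -0.67 ± 0.22 (SE) in HM, -1.12 ± 0.22 in TM and -0.91 ± 0.22 in PB (adjusted p = 0.018, 0.000282 and 0.00109, edgeR). MYL2, the light chain of slow and heart muscle, was higher than in LDM by 1.91 ± 0.32 in HM, 2.32 ± 0.32 in TM and 1.95 ± 0.32 in PB (adjusted p = 2.88e-05, 4.45e-06 and 7.75e-06, edgeR). Neither passed in the 3 pairs without LDM. Of 8 regulatory light chain genes 6 had a row and 4 were tested, and MYL9, the smooth muscle light chain, and MYL12A, a non-muscle one, were the other two.

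Fibre type markers also differed between LDM and the other cuts. The 7 fast fibre markers summed to a median of 89154 CPM in LDM (76510 to 118866), 53134 in HM (20610 to 89615), 43477 in TM (16312 to 90861) and 56899 in PB (34610 to 103692). The 7 slow fibre markers summed to 13433 CPM in LDM (6827 to 20086), 42170 in HM (12382 to 66669), 55479 in TM (10040 to 102313) and 42337 in PB (19925 to 53426). The slow myosin MYH7, whose gene model also overlaps a neighbouring myosin, was higher than in LDM by 1.43 ± 0.33 (SE) in HM, 1.93 ± 0.33 in TM and 1.56 ± 0.33 in PB (adjusted p = 0.000925, 5.13e-05 and 0.000233, edgeR). The model that spans the fast myosins MYH4, MYH1 and MYH2 was lower in HM and TM, at -0.70 ± 0.23 and -0.99 ± 0.23, and stood at -0.08 ± 0.23 in PB (adjusted p = 0.019, 0.00179 and 0.819, edgeR). That model was also lower than in PB in HM, at -0.63 ± 0.23, and in TM, at -0.92 ± 0.23 (adjusted p = 0.0413 and 0.00408, edgeR), pairs in which MYLK2 did not pass, and its HM call was lost in 9 of 40 fits that left out 1 library (adjusted p = 0.117 without PB10). The part of fibre type in the MYLK2 differences was not tested.

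Set against the fast light chain MYLPF alone, MYLK2 had its lowest median in the hamstring. The ratio of MYLK2 to MYLPF per length, a measure added after the data were seen, had medians of 0.0860 in LDM, 0.0922 in PB, 0.0816 in TM and 0.0493 in HM. HM was lower than both TM and PB, at -0.69 log2 units from TM and -0.90 from PB (adjusted p = 0.0185 and 0.00708 over 6 pairs, two-sided permutation test, n = 10 each). HM against LDM was -0.59 (adjusted p = 0.0650, same permutation test), and LDM3 and LDM4, at 0.0357 and 0.0378, lay below the HM median. The slow light chain MYL2 was not part of this ratio. The other 3 pairs lay between -0.21 and 0.31 and did not pass.

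Within a cut, libraries with more MYLPF tended to have more MYLK2, though no relation passed after adjustment. Pearson's r of the log2 values was 0.48 for LDM, 0.76 for HM, 0.83 for TM and 0.73 for PB (n = 10 each), with permutation p = 0.16, 0.00739, 0.00293 and 0.0149 and adjusted p = 0.575, 0.133, 0.105 and 0.179. Spearman's rho was 0.71, 0.84, 0.85 and 0.77 (permutation p = 0.0273, 0.00402, 0.00277 and 0.0131; adjusted p = 0.164, 0.0724, 0.0724 and 0.157). Without the 2 libraries farthest from the median of MYLPF, r was 0.38, 0.71, 0.71 and 0.70. MYH7 and MYLK2 had r = -0.63 in TM (permutation p = 0.041, adjusted p = 0.369, n = 10). In all 36 relations were computed, of which 0 had an adjusted p under 0.05 and 4 an unadjusted one. MYLK2 and MYLK4 had r = 0.25 in LDM, -0.26 in HM, -0.53 in TM, and -0.17 among the PB libraries, with adjusted p = 0.570 or more (permutation test).

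**Figure D4:**
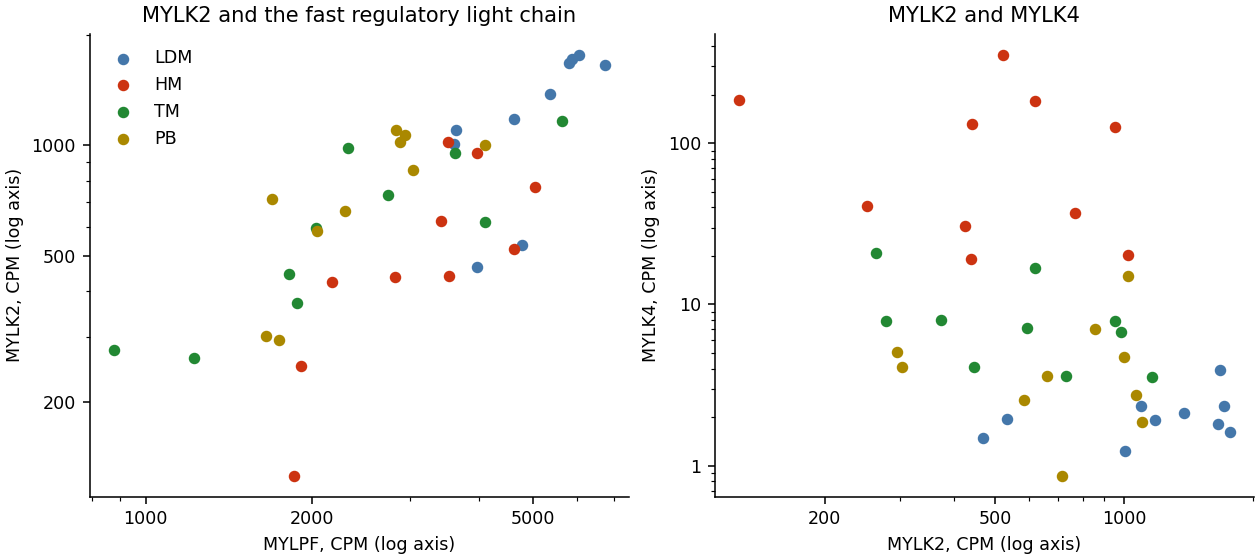
Left, MYLK2 against the fast light chain MYLPF, and right, MYLK4 against MYLK2, in CPM on log axes for 40 libraries coloured by cut. MYLK2 is higher where MYLPF is higher within HM, TM and PB (r = 0.76, 0.83 and 0.73), whereas MYLK4 is above all LDM and PB libraries in each HM library, and TM10 (20.7 CPM) lies above HM1 and HM3.

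The genes whose pattern was most like that of MYLK2 were TBKBP1, LINGO1, AMPD1, RNF34 and TPX2, with r from 0.881 to 0.894 of log2 CPM over the 40 libraries. AMPD1 is the AMP deaminase of skeletal muscle, and its medians were 683 CPM in LDM, 363 in PB, 228 in TM and 184 in HM. After the cut means were taken off, the closest were GPD1, TBKBP1, NMNAT3, LINGO1 and RNF34, with r from 0.839 to 0.854. The points share libraries and their depth. The model of fast myosins had r = 0.83 with MYLK2 and 0.79 without the cut means, and MYH7 had -0.59 and -0.44. TPX2, a spindle protein gene, is also the neighbour of MYLK2: it lies on chromosome 17 from 35431370 to 35484760 on the same strand and ends 15.1 kb before MYLK2 starts. Its medians were 6.49 CPM in LDM, 4.49 in PB, 3.09 in HM and 2.95 in TM.

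The genes most like MYLK4 over the 40 libraries were not those most like it within cuts. Because MYLK4 was picked for a high level in HM, the ranking over all libraries favours genes that are high there. The closest over all libraries were the homeobox genes HOXA13, HOXA11 and HOXC11, which mark position along the body and limb, with r = 0.852, 0.821 and 0.820, then TBC1D1 and MRAS with 0.721 and 0.718. HOXA13 had 0 reads in all LDM and TM libraries, 9 in all of PB, and 108 to 393 in each HM library. With the cut means taken off, r of these 3 fell to 0.240, 0.0267 and 0.276. The closest genes by that measure were TSPAN9, DMRT2, WNT11, CISD3 and ADAMTSL5, with r from 0.622 to 0.683. MYLK4 had r = 0.26 with MYH7 and -0.37 with the fast myosin model, and 0.03 and -0.03 without the cut means. MYLK3 was not tested, so no like genes are named for it.

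The rest of the light chain pathway was read from 5 lists with 37 genes, of which 34 had a row and 31 were tested. In HM against LDM 16 of 31 passed, 8 higher and 8 lower, beside 32.5% of all genes. In TM against LDM 12 passed (4 higher, 8 lower; 24.7% of all genes), and in PB against LDM 17 (8 higher, 9 lower; 41.7%). In HM against PB 15 passed (7 higher, 8 lower; 27.6%) and in TM against PB 11 (5 higher, 6 lower; 23.1%). In HM against TM 1 passed, beside 0.768% of all genes. The median log2 change over the 31 genes lay between -0.18 and 0.07 in the 6 pairs, beside -0.02 to 0.08 over all genes tested.

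Of calmodulin, the calcium sensor of the kinases, CALM3 was tested and was lower in all 3 cuts than in LDM. It stood at -0.68 ± 0.12 (SE) in HM, -0.51 ± 0.12 in TM and -0.56 ± 0.12 in PB (adjusted p = 3.57e-05, 0.00124 and 0.000197, edgeR).

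Other calmodulin-regulated enzymes were lower in the 3 cuts than in LDM where they passed: 5 of 8 tested in HM, 6 in TM and 4 in PB, with 0 higher, beside 32.5%, 24.7% and 41.7% of all genes in either direction. PPP3R1, the regulatory subunit of calcineurin, had log2 changes of -1.39 ± 0.20 (SE) in HM, -1.09 ± 0.20 in TM and -0.93 ± 0.20 in PB (adjusted p = 3.32e-06, 9.08e-05 and 0.00025, edgeR). CAMK2A, a calmodulin kinase, had changes of -0.72 ± 0.15, -0.82 ± 0.15 and -0.70 ± 0.15 (adjusted p = 0.000298, 8.94e-05 and 0.00022, edgeR). PPP3CA, a catalytic subunit of calcineurin, was lower than in PB, at -1.14 ± 0.28 in HM and -1.18 ± 0.28 in TM (adjusted p = 0.00187 and 0.00182, edgeR). Named after their values were seen, the others that passed against LDM were PPP3CA, PPP3CB and CAMK2B in HM, PPP3CA, PPP3CB, CAMK2D and CAMK2G in TM, and PPP3CB and CAMK2D in PB. The PPP3CA calls against LDM were lost in many fits that left out 1 library, 8 of 40 in HM and 10 of 40 in TM, with adjusted p up to 0.0853 in HM and 0.0823 in TM without LDM8.

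In the list of other light chain kinases, ROCK1 and ROCK2 were higher in the belly. ROCK1 ran from 15.9 to 34.0 CPM in PB and from 1.41 to 17.5 in the other 3 cuts. It was higher in PB than in LDM by 2.04 ± 0.26 (SE, adjusted p = 1.48e-07, edgeR), and HM and TM stood at -1.62 ± 0.26 and -1.83 ± 0.26 from PB (adjusted p = 1.19e-05 and 2.25e-06, edgeR). ROCK2 was higher in PB than in LDM by 2.03 ± 0.43 (adjusted p = 0.000296, edgeR). It ran from 257 to 1392 CPM in PB and from 20.3 to 445 in the other 3 cuts, so the libraries overlapped. CDC42BPA, a related kinase, was higher in PB than in LDM by 1.13 ± 0.20 (adjusted p = 1.9e-05, edgeR). DAPK3 and CIT, named after their values were seen, were lower in that pair, at -0.96 ± 0.25 and -1.19 ± 0.36 (adjusted p = 0.00216 and 0.00702, edgeR), so 5 of 9 kinases passed there beside 41.7% of all genes. Of the 9 kinases in this list 3 passed in HM against LDM, MYLK, CDC42BPA and CDC42BPB, all higher, beside 32.5% of all genes, the last named after its values were seen. The CDC42BPA call in that pair was lost without LDM9 or HM7 (adjusted p = 0.0563 and 0.0545).

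MYLK, the smooth muscle kinase, was higher in HM than in LDM by 1.26 ± 0.31 (SE, adjusted p = 0.00229) and than in PB by 1.52 ± 0.32 (adjusted p = 0.000412, edgeR). Its HM median was 41.5 CPM, LDM 33.8, TM 45.8 and PB 24.3. HM6 alone had 483 CPM, against 28.5 to 73.0 in the other HM libraries, and is the library with 7877 CPM of smooth muscle markers. Without HM6 the changes were 0.55 (adjusted p = 0.0221) and 0.76 (adjusted p = 0.00235). MYL9 did the same: 1.38 ± 0.33 over LDM and 1.65 ± 0.33 over PB (adjusted p = 0.00135 and 0.000256, edgeR). Without HM6, MYL9 was at 0.77 and 0.98 (adjusted p = 0.00982 and 0.00156, edgeR). It was also higher in TM than in PB, by 0.92 ± 0.32 (adjusted p = 0.0357, edgeR), a call lost in 14 of 40 fits that left out 1 library. MYLK in TM over PB was 0.69 (adjusted p = 0.103), and 0.64 without HM6 (adjusted p = 0.00892, edgeR). MYLK in HM over TM was 0.83 (adjusted p = 0.224), and 0.12 without HM6 (adjusted p = 0.842, edgeR). Smooth muscle markers without HM6 summed to a median of 632 CPM in HM, beside 452 in LDM, 673 in TM and 365 in PB; their part in these differences was not tested.

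Myosin phosphatase, which removes the phosphate, had 4 of 9 tested genes called in PB against LDM, 6 in HM against PB and 4 in TM against PB, beside 41.7%, 27.6% and 23.1% of all genes. It had 3 called in HM against LDM, 1 in TM against LDM and 1 in HM against TM, beside 32.5%, 24.7% and 0.768%. Its catalytic subunits PPP1CB and PPP1CC were higher in PB than in LDM by 0.46 ± 0.10 (SE) and 0.52 ± 0.10 (adjusted p = 0.000341 and 9.92e-05, edgeR). The targeting subunit PPP1R12A was higher by 0.94 ± 0.20 in the same pair (adjusted p = 0.0003, edgeR). The fourth called there, PPP1CA, another catalytic subunit named after its values were seen, was lower at -0.35 ± 0.11 (adjusted p = 0.0116, edgeR). PPP1CB, PPP1CC and PPP1R12A were also higher in PB than in HM and TM. For these genes HM stood at -0.41, -0.54 and -0.68 from PB (adjusted p = 0.00222, 0.000148 and 0.00954, edgeR). PPP1R12B, the targeting subunit of striated muscle, ran from 206 to 917 CPM over all libraries. In the fit by cut alone it passed in 0 of the 6 pairs, with log2 changes from -0.18 to 0.39 (F test adjusted p = 0.222, edgeR). TM over PB, at 0.39, passed with the library number as a block, at 0.41 (adjusted p = 0.0303, edgeR). It also passed without HM6, HM9, TM3 and TM7, at 0.48 (adjusted p = 0.0443, edgeR). PPP1R14C, an inhibitor of the phosphatase, was lower in HM than in the other cuts, at -1.05 ± 0.18 from LDM, -0.76 ± 0.18 from TM and -0.72 ± 0.18 from PB (adjusted p = 3.35e-05, 0.0227 and 0.00209, edgeR). It was the only one of the 31 pathway genes that passed between HM and TM in the edgeR fit of all 40 libraries, and that call was lost without TM2, TM4 or TM10 (adjusted p = 0.0592, 0.0523 and 0.0504).

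**Figure D5:**
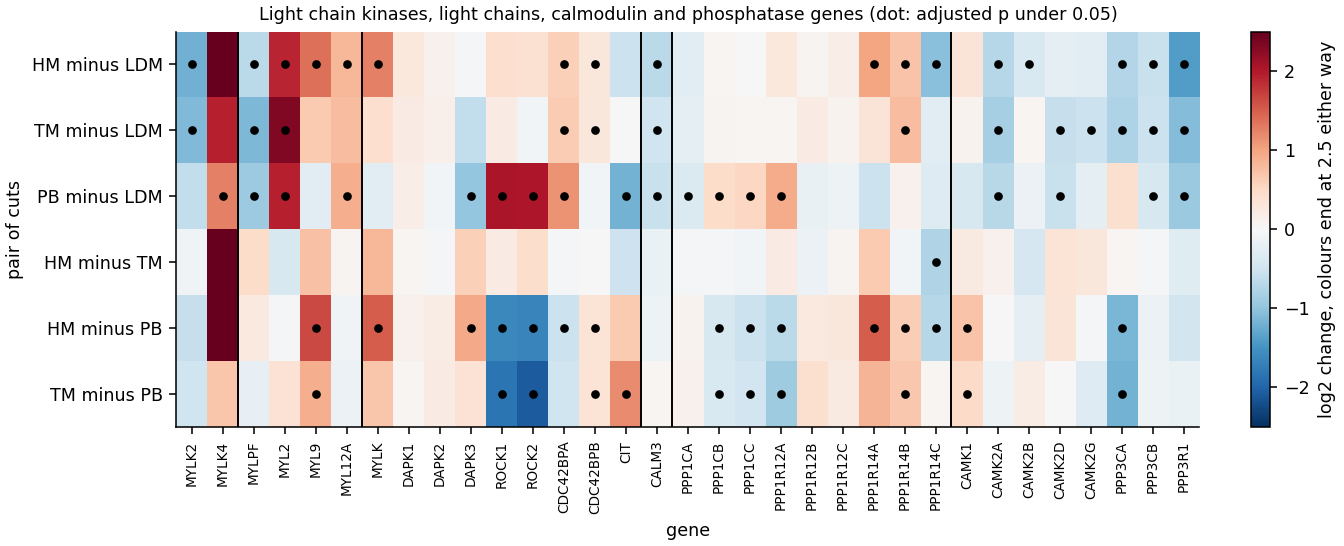
Log2 change of MYLK2, MYLK4 and the 31 tested pathway genes in the 6 pairs of cuts, with lines between the lists and colours ending at 2.5 in either direction. Dots mark an adjusted p under 0.05. For MYLK4 only PB minus LDM was tested, and that test is not independent support, because the choice of MYLK4 used both cuts. PPP1R14C is the single dot in HM minus TM, at -0.76.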

How the data were processed

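Read counts per Ensembl gene and FPKM values for 40 libraries were deposited by the authors in a single table with a gene length in bases, per the file headers. FPKM of the authors equals count, length and library total for 100% of counts above 0 (relative tolerance 0.001). Tools in the submitters' processing notes are HTSeq 0.9.1, HISAT2 2.0.5 and cutadapt 1.15, with the build Sscrofa11.1 and no roles or settings. There were 0 lines naming no gene and 0 unassigned columns. RNA was extracted with Trizol and libraries made with a KAPA stranded kit, per the labels' protocols.

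CPM is the count scaled to the library total. The test of counts was that of edgeR 4.0.16 (R 4.3.3), with TMM scaling, filterByExpr by cut (11713 genes), a robust quasi-likelihood fit of 40 libraries by cut, and Benjamini-Hochberg adjustment over all genes tested, with a threshold of 0.05. MYLK3 failed the filter and was described by counts and fitted without it (17387 genes). Ratios and correlations used two-sided permutation tests (100000 resamples). Log2 CPM for correlations and likeness used a prior count of 2. The fit was tested on simulated data.

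Symbols are those of the table for 14883 genes; 637 came by Ensembl identifier, 374 by Entrez identifier and 331 by position, and 5055 had none. The pathway genes MYL7, MYL12B and CALM2 had no row under their name, and 1 other gene of the pathway is not reported here. Libraries of a cut were not duplicates: the lowest chi-square per gene was 29.8.

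The members, lists and rules were chosen with earlier results of these data known. The named genes are the 4 MYLK genes, MYLPF, MYL2, CALM3, PPP1CB, PPP1R12B, MYH7 and the fast myosin model, the 3 members of each list with the smallest F test p, and for each tested member the 5 most alike genes by either measure. Alternatives were other scalings, filters and tests (DESeq2 1.42.0, limma-voom of limma 3.58.1), the library number as a block, single pairs, and libraries left out, with those of HM6, HM9, TM3 and TM7 together and the MYLK2 to MYLPF ratio chosen after seeing the data.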

Additional observations from a re-analysis of the deposited data

Results flagged for a closer look

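In 28 groups of 10 libraries, 1 gene in 1 cut each, the highest or lowest library was set against the rest of its group by Dixon's ratio at its 95% critical value, and 4 stood apart. Chance alone gives about 1 in 20 such groups where values are normally distributed. The ratio was taken on CPM without logarithms and that distribution was not checked, so the rate may not hold here. MYLK4 stood apart in 3 cuts, each time at the top. It had 3.95 CPM in LDM6, against 1.24 to 2.33 in the other LDM libraries. It had 356 CPM in HM7, against 19.0 to 185, and 14.9 CPM in PB7, against 0.866 to 7.07. MYLK, the smooth muscle kinase, had 483 CPM in HM6, against 28.5 to 73.0 in the other HM libraries.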

How the results depend on the processing

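MYLK4 rests on 21 to 57 reads a library in LDM, and MYLK3 on 3 reads in all of LDM, so depth limits both there. Of the values recomputed under an alternative, 3976 were labelled the same. Tested values so labelled kept their direction and their side of the threshold. Untested ratios and MYLK3 sums so labelled moved by less than the SD between libraries. The label does not follow the size of a change: MYLK in HM over LDM kept its call while going from 1.26 to 0.55 without HM6. 68 no longer passed, 10 newly passed, 10 changed sign and 5 moved; causes were not tested. With limma-voom, MYLK4 was 4.68 log2 units higher in HM than in LDM, and MYLK2 in HM against PB passed at -0.72 (adjusted p = 0.0377). MYLK4 in PB against LDM, whose test is not independent support, was 1.05 with limma-voom (adjusted p = 0.176). With each library left out in turn, MYLK4 in PB against LDM ran from 0.92 to 1.42 and MYLK2 in HM against TM from -0.24 to 0.03; the first lost its call without PB7, and the second was above 0 without HM5 (0.031), TM1 (0.0186) or TM7 (0.0231). Between HM and TM 90 genes were called, against 199 with DESeq2, 312 with limma-voom and 213 with the library number as a block, and in a fit of that pair alone 0 pathway genes passed.

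The ratio of MYLK3 to MYLK2 in TM against PB was -0.19, and 0.15 with a prior count of 2, which also took PB against LDM from 2.84 to 1.87. With upper-quartile scaling, r in PB was 0.0199 for MYLK2 and MYLK3, 0.088 for MYLPF and MYLK3 and 0.0637 for MYH7 and MYLK4, and in LDM -0.0058 for MYLK3 and MYLK4, each of the other sign than before. PPP1R12B in HM against LDM was -0.0089 without LDM7 and -0.0262 without HM2, within a range up to 0.139 over single libraries left out. The library numbers were not taken as pairs, because the labels do not say that a number marks a pig. Of the 60 same-number pairs, 52 had a correlation of deviations over 0.1, from -0.128 to 0.51. The median was 0.245 for the same number and -0.0319 for different numbers, and 28 of 40 libraries correlated best with their own number. Whether the numbers mark animals was thus not settled, and the fit by cut leaves such pairing out. With that block MYLK2 passed in PB against LDM, at -0.66 (adjusted p = 0.0245), and in HM against PB, at -0.64 (adjusted p = 0.0416).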
